A study of Mus musculus with 6 samples.

Results

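The genes described here are the ligands and receptors of the tumour necrosis factor (TNF) superfamily. They were chosen by symbol, as all genes named Tnfsf or Tnfrsf with a number together with Tnf, Lta, Ltb, Fas, Fasl, Cd40, Cd27 and Ngfr, and 37 of the 22180 genes on the array met this rule. Each of the 37 had 1 probe set, and they divide into 13 ligands and 24 receptors. Not analysed here were 2 probe sets of several symbols that include a superfamily symbol, among them that shared by the ligands Tnfsf12 and Tnfsf13.

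The samples were MC3T3-E1 cells, a pre-osteoblast line from mouse calvaria, grown to confluency and then kept for 14 days in osteogenic medium, which for both groups contained ascorbic acid at 50 µg/ml and β-glycerophosphate at 10 mM. Of the 6 samples 3 received NU7441 at 1 µM, which inhibits the repair kinase DNA-PKcs, and 3 its solvent DMSO, and total RNA of whole cells was measured on Affymetrix arrays. Each group carries the numbers 1 to 3, but the labels do not say whether these came from separate cultures. The p-values therefore reflect the spread among the 6 samples alone, and that spread may be technical. A cell line of 1 type contains neither osteoclasts nor lymphocytes with which its ligands and receptors could interact. In bulk RNA, fewer cells of a type and less RNA per cell cannot be told apart.

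TNF superfamily ligands are mostly membrane-bound trimers that bind receptors with cysteine-rich outer domains. One class of receptors carries a death domain inside the cell and can recruit caspases, another binds TRAF adaptors that activate NF-kB and JNK kinases, and decoy receptors bind ligand without passing on a signal. In bone, RANKL (Tnfsf11) from cells of the osteoblast lineage drives osteoclast formation through RANK (Tnfrsf11a), and osteoprotegerin (Tnfrsf11b), secreted by the same lineage, captures RANKL.

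The promoter sequences of the 3 receptors with the largest differences in size are shown first, since the results below turn on them. They are the 250 bases before an annotated start from RefSeq (GRCm38.p6), 5′ to 3′ on the strand of the gene, at chr17:23677450-23677699 on the minus strand for Tnfrsf12a, chr14:61046856-61047105 on the minus strand for Tnfrsf19 and chr4:150927749-150927998 on the plus strand for Tnfrsf9. Capitals mark matches on either strand to an NF-kB motif (3 G, any 2 bases, 3 T and 2 C) or to the AP-1 motif TGANTCA.
Tnfrsf12a: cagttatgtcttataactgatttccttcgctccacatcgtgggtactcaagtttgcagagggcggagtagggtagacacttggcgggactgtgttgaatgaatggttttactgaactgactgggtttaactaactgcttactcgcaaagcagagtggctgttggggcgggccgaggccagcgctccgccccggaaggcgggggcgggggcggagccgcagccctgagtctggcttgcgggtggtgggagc
Tnfrsf19: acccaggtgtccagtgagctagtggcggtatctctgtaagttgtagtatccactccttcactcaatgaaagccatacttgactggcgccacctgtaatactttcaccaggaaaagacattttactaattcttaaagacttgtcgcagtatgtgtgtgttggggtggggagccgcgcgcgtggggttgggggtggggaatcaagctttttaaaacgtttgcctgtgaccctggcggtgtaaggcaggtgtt
Tnfrsf9: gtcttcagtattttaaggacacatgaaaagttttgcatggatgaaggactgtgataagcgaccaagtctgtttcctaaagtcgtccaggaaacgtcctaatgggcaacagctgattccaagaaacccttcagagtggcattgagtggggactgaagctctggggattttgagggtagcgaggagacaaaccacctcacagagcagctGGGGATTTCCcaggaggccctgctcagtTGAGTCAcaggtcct
Tnfrsf9 has 2 annotated starts, and the window shown holds an NF-kB match from 43 to 34 bases and an AP-1 match from 15 to 9 bases before its start, which do not overlap. Neither motif was found in the window of its other start, in that of Tnfrsf12a or in the 2 windows of Tnfrsf19. Windows of 300 bases, from 250 before to 50 after a start, were matched for 30 of the 37 members. The NF-kB letters stood in 3 of these 30 genes (10.0%), Tnfrsf9, Ltb and Tnfrsf25, against 1.89% of all genes with a window, and the AP-1 letters in 5 (16.7%), Tnfrsf9, Fas, Tnfrsf8, Tnfsf13b and Tnfsf14, against 8.97%. These matches describe letters in a window and show no binding.

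The 6 arrays had medians of 6.38 to 6.42 log2 units and upper quartiles of 8.26 to 8.32. With 3 arrays per group, their number limits the precision. Osteoblast identity was checked on 10 markers, among them Sp7, Alpl and Ibsp, and 9 of them had a mean signal above every array's upper quartile. Of the 10 T and NK cell markers 8 were measured and all their values lay between 4.42 and 6.67, and of the 7 B cell markers 6 were measured, between 3.94 and 6.61. The mean signal over the T and NK markers was 5.77 to 5.94 in DMSO and 5.85 to 5.97 in NU7441, and over the B cell markers 5.40 to 5.66 and 5.62 to 5.74. The 8 endothelial markers lay between 4.0 and 6.63, and the 10 markers of macrophages and osteoclasts between 4.49 and 11.75, the brightest being Ctsk. The osteoblast markers were higher with NU7441 in 10 of 10 by a median of 0.54. Limma gave 1 of them an unadjusted p under 0.05 and 0 an adjusted one. The paired fit with trend and robust prior, given for the receptors below, called 6 (60%, against 0.451% of all genes). Among the 7218 genes with a mean above every array's upper quartile it called 1.07%. The arrays of a group were not alike in 3 other respects. The median over 15 genes of ATF4 and CHOP stress, against each gene's mean of 6 arrays, was -0.40, 0.58 and 0.23 in DMSO 1 to 3 and -0.21, -0.11 and -0.19 in NU7441 1 to 3. That over 15 proliferation genes was 0.16, -0.48 and 0.16 in DMSO and 0.06, -0.23 and 0.31 in NU7441, and that over the osteoblast markers -0.63, -0.47 and 0.18 in DMSO and -0.03, 0.12 and 0.75 in NU7441. DMSO 2 thus stood highest for stress and lowest for proliferation, and NU7441 3 highest for osteoblast markers.

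Whether NU7441 altered the superfamily was tested as part of the fit over all 22180 genes. Among the 37 members the signal differed most for 3 TRAF-binding receptors: Tnfrsf12a and Tnfrsf9 were lower with NU7441, by 1.44-fold and 1.94-fold, and Tnfrsf19 was higher by 1.51-fold. Tnfrsf10b and Tnfrsf21, both death domain receptors, lay slightly lower, and no ligand had an unadjusted p under 0.05. Limma without pairs gave 0 of the 37 an adjusted p under 0.05, as it did 0.0% of all genes, and the smallest adjusted p of a member was 0.598.

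At an unadjusted p under 0.05 limma gave 5 of 37 members, or 13.5%, against 6.79% of all genes. Of these 4 were lower with NU7441, where the background is 3.3%, and 1 higher, where it is 3.49%. Centring each array on its median gave the same 5 members, while over all genes the split moved from 731 lower and 775 higher to 931 lower and 549 higher. Without DMSO 2 the members were 3, Tnfrsf12a, Tnfrsf19 and Tnfrsf10b, and without NU7441 3 they were also 3, Tnfrsf12a, Tnfrsf19 and Tnfrsf21. The groups did not overlap in 5 members (13.5%), close to the 12.8% of all genes. Lower with NU7441 were 4 of them, Tnfrsf12a, Tnfrsf10b, Tnfrsf21 and Tnfrsf18, where the background is 6.64%, and higher was 1, Tnfrsf19, where it is 6.13%. The median difference over the 37 was -0.03, beside 0.0036 over all genes, with 20 members lower and 17 higher. Quantile normalization made it 24 lower and 13 higher, and median centring 23 and 14. Of the 37 members 32 had a 95% interval of the difference within 0.5 log2 units on either side of 0 (86.5%, beside 87.0% of all genes). The exceptions were Tnfrsf12a, Tnfrsf19, Tnfrsf9, Tnfrsf11b and Tnfsf18.

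**Figure D1:**
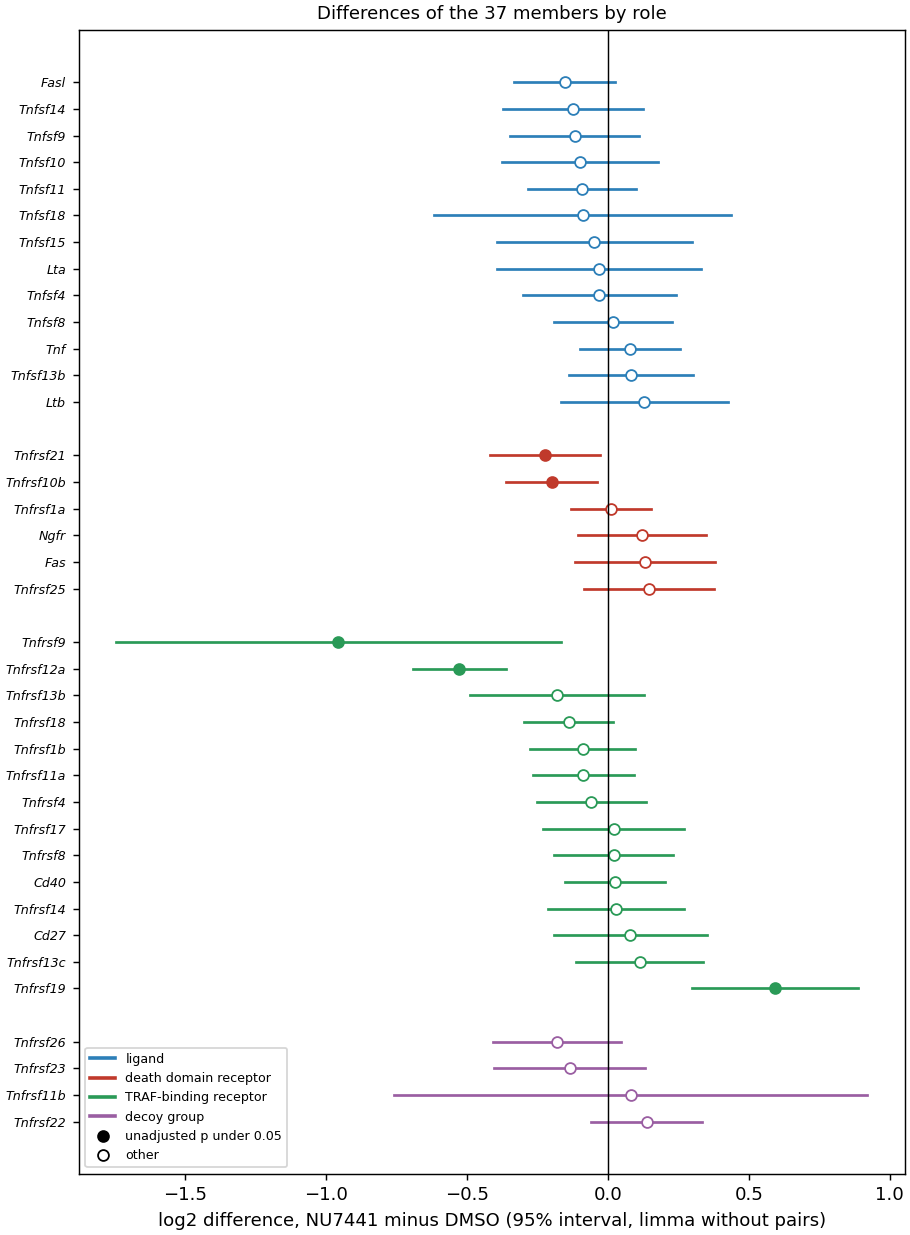
Log2 difference, NU7441 minus DMSO, for each of the 37 members by role, with its 95% interval from limma without pairs (x axis, log2 units). Filled points, at an unadjusted p under 0.05, are 5 receptors, and all 13 ligands are open and near 0.

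Signal was unevenly spread over the members. In 7 of them the mean over all arrays was above every array's upper quartile: Tnfrsf19, Tnfrsf11b, Tnfrsf1a, Tnfrsf10b, Tnfrsf12a, Tnfrsf9 and Tnfrsf23, all receptors. Of these 7 the unadjusted p was under 0.05 in 4, and of the other 30 in 1, while among all 7218 genes as bright it was in 5.74%. In 19 members, 11 of them ligands, the mean was below every array's median, where signal over background was not analysed here and a difference in transcript may be understated.

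Tnfrsf12a, the receptor of the cytokine TWEAK also known as Fn14, has a short cytoplasmic tail that binds TRAFs. Its log2 signal was 9.73, 9.58 and 9.64 in DMSO 1 to 3 and 9.10, 9.18 and 9.08 in NU7441 1 to 3. All DMSO values lay above all NU7441 values, with a gap wider than the spread within either group. The mean was 9.65 ± 0.08 in DMSO and 9.12 ± 0.05 in NU7441 (SD, n = 3 each), a difference of -0.53 (SE 0.07, 95% interval -0.69 to -0.36), with an unadjusted p of 1.24e-04 and an adjusted p of 0.598 in limma. Only 2 of 22180 genes had a smaller p. Within the arrays numbered 1, 2 and 3 the difference was -0.63, -0.40 and -0.56, and leaving out any 1 array kept it between -0.56 and -0.49.

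Tnfrsf19, or TROY, is a TRAF-binding receptor found on progenitor cells and known as a target of Wnt signalling. It measured 11.00, 10.61 and 11.06 in DMSO and 11.57, 11.44 and 11.44 in NU7441, so the groups were apart and DMSO 2 was lowest. The difference was 0.59 (SE 0.12, 95% interval 0.30 to 0.89, means 10.89 ± 0.24 and 11.48 ± 0.08, SD, n = 3 each), with an unadjusted p of 0.00194 and an adjusted p of 0.598 in limma. Same-numbered arrays differed by 0.57, 0.83 and 0.39. Without DMSO 2 the difference was 0.45, and its unadjusted p 0.00104.

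Tnfrsf9, or CD137, is a costimulatory receptor best known from activated T cells. Its signal was 10.14, 10.34 and 9.08 in DMSO and 9.12, 9.08 and 8.50 in NU7441. DMSO 3 lay among the NU7441 arrays, so the groups overlapped, and number 3 was lowest in each group. The difference was -0.95 (SE 0.33, 95% interval -1.74 to -0.17, means 9.85 ± 0.68 and 8.90 ± 0.35, SD, n = 3 each), the largest in size of the 37 members, with an unadjusted p of 0.0240 and an adjusted p of 0.699 in limma. Same-numbered arrays differed by -1.02, -1.26 and -0.58, all lower with NU7441, and the SE with pairs was 0.14. In the fit without pairs the unadjusted p in limma was 0.0804 without DMSO 1, 0.0816 without DMSO 2 and 0.0801 without NU7441 3, and leaving out any 1 array gave differences from -1.34, without DMSO 3, to -0.71, without DMSO 2. The arrays with more signal of Tnfrsf9 were those with less of the osteoblast markers: against the mean of 6 arrays Tnfrsf9 stood at 0.76, 0.97 and -0.30 in DMSO and -0.26, -0.30 and -0.88 in NU7441, where the osteoblast markers stood at -0.63, -0.47 and 0.18 and at -0.03, 0.12 and 0.75. The part of these markers in the difference was not tested. The medians of the T and NK cell markers lay between -0.08 and 0.09 on all 6 arrays. Of these 8 markers 6 had a mean below every array's median, where a difference may be understated. The ligand of this receptor, Tnfsf9, was at 5.56, 5.73 and 5.63 in DMSO and 5.37, 5.51 and 5.69 in NU7441, with overlapping groups.

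**Figure D2:**
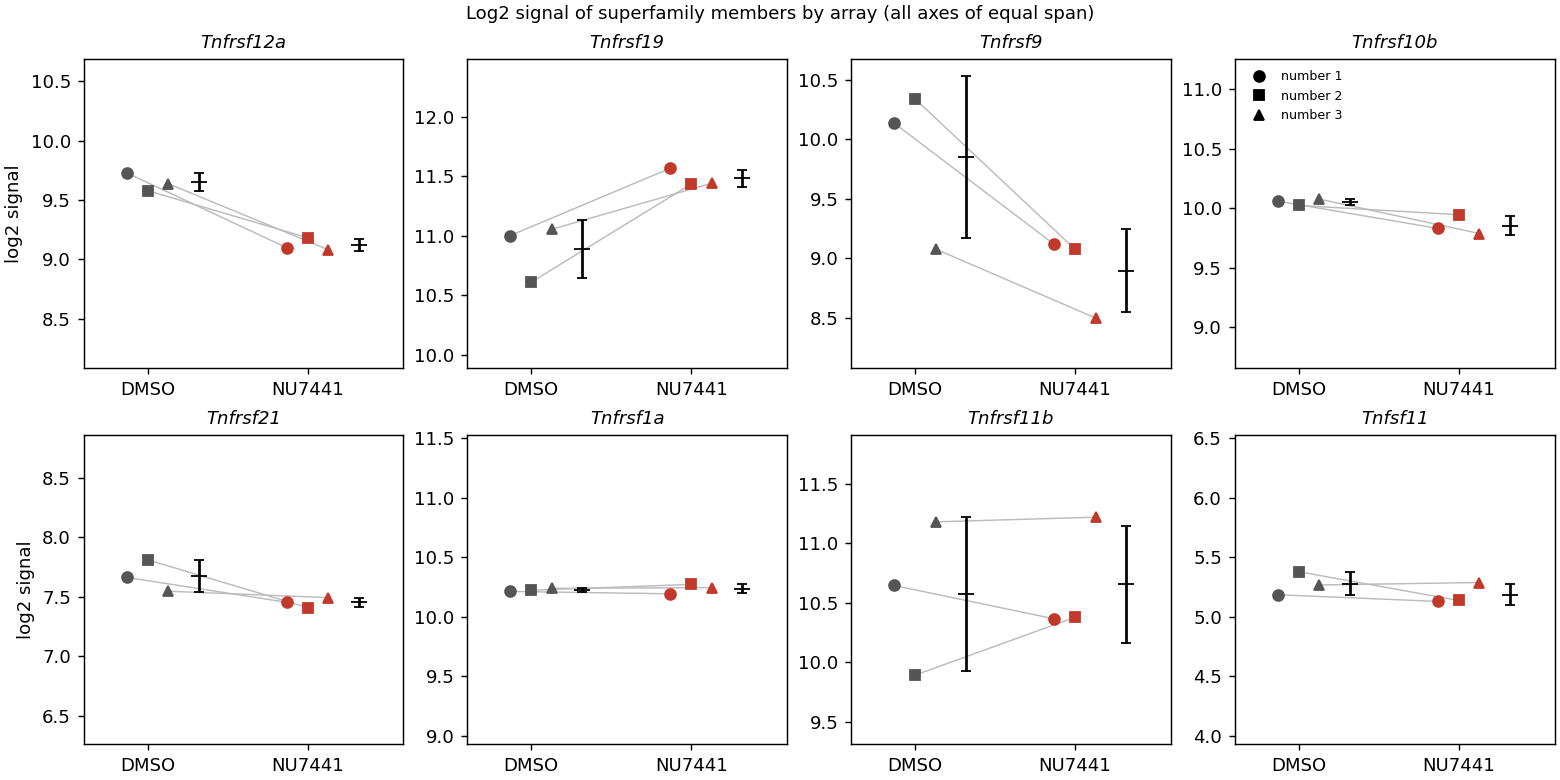
Log2 signal (y axis, all panels of equal span) of 8 members in each array by group, with the symbol giving the replicate number, grey lines joining same numbers and black bars the mean ± SD of 3 arrays. Tnfrsf12a and Tnfrsf19 separate the groups, Tnfrsf9 differs by -0.58 to -1.26 along the lines with DMSO 3 low, and Tnfrsf1a is flat.

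Because same-numbered arrays deviated together from their group means, the fit was repeated with the number as a block. Limma then again called 0 members and 0 genes, with 4 members and 2078 genes (9.37%) at an unadjusted p under 0.05. Of the 5 members at that threshold without pairs Tnfrsf21 was the one lost, with an unadjusted p of 0.0516 in limma with the block. With the block, an intensity trend of the variance and a robust prior, limma called 100 genes, or 0.451%, and 3 of the 37 members, or 8.11%: Tnfrsf12a (adjusted p = 0.0167), Tnfrsf9 (adjusted p = 0.0193) and Tnfrsf19 (adjusted p = 0.0235). The 2 that fell under this fit, Tnfrsf12a and Tnfrsf9, stand beside a background of 0.275%, and the 1 that rose, Tnfrsf19, beside 0.176%. All 3 are among the 7 members above every array's upper quartile. Of all 7218 genes as bright this fit called 77, or 1.07%. The calls of these 3 members depended on pair 1, and that of Tnfrsf12a also on pair 3. Leaving out pair 1 ended all 3, the adjusted p in limma being 0.0850 for Tnfrsf12a, 0.103 for Tnfrsf9 and 0.104 for Tnfrsf19. Leaving out pair 3 ended that of Tnfrsf12a (adjusted p = 0.0644), and leaving out pair 2 ended none. In these fits of fewer arrays the direction of all 3 stayed the same.

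**Figure D3:**
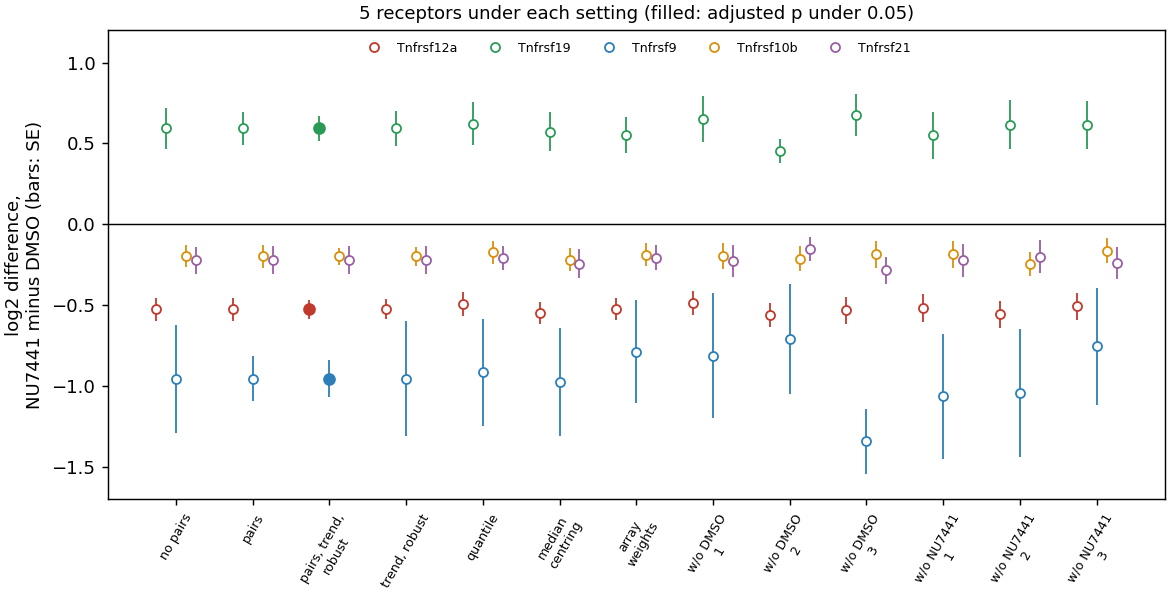
Log2 difference, NU7441 minus DMSO, with its SE (y axis) for 5 receptors under each setting (x axis), filled where the adjusted p in limma is under 0.05. Each receptor keeps its sign throughout, and the filled points occur under pairs with trend and robust prior, for Tnfrsf12a, Tnfrsf19 and Tnfrsf9.

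Among the 6 death domain receptors 2 (33.3%) lay lower with an unadjusted p under 0.05, against 3.3% of all genes in that direction. The other 4 lay higher, with a p above it. Tnfrsf10b, the mouse receptor of the death ligand TRAIL, was at 10.06, 10.02 and 10.08 in DMSO and 9.83, 9.95 and 9.79 in NU7441, with the groups apart. The difference was -0.20 (SE 0.07), with an unadjusted p of 0.0227 and an adjusted p of 0.699 in limma. Tnfrsf10b is known as a target of CHOP. The stress list lay lower with NU7441 in 15 of 15 genes, by a median of -0.25, with 0 of the 15 at an unadjusted p under 0.05 in limma. Without DMSO 2 that list had 12 lower and 3 higher and a median of -0.08. Ddit3, which encodes CHOP, differed by -0.68 (SE 0.39). Its signal was 9.42, 11.13 and 10.11 in DMSO and 9.67, 9.68 and 9.26 in NU7441, with overlapping groups. The part of Ddit3 and the other stress genes in the difference of Tnfrsf10b was not tested. Tnfrsf21, or DR6, was at 7.66, 7.81 and 7.55 in DMSO and 7.46, 7.41 and 7.49 in NU7441, again with the groups apart, DMSO 3 and NU7441 3 being nearest. It differed by -0.22 (SE 0.08), with an unadjusted p of 0.0317 and an adjusted p of 0.713 in limma, and with the replicate block its unadjusted p was 0.0516. These small differences had an unadjusted p over 0.05 when single arrays were left out, Tnfrsf10b without DMSO 1, DMSO 3, NU7441 1 or NU7441 3, and Tnfrsf21 without DMSO 1, DMSO 2, NU7441 1 or NU7441 2.

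Tnfrsf1a, the main TNF receptor of most cells, was the steadiest of the bright members, at 10.21, 10.22 and 10.24 in DMSO and 10.19, 10.27 and 10.25 in NU7441. Its difference was 0.01, with a 95% interval from -0.13 to 0.15, and its sign turned with median centring. Fas, the receptor of Fas ligand, was at 7.42, 7.41 and 7.08 in DMSO and 7.50, 7.43 and 7.37 in NU7441, and DMSO 3 alone was low. Ngfr, the low-affinity neurotrophin receptor, differed by 0.12 (SE 0.10, 6.24, 6.08 and 6.35 in DMSO against 6.21, 6.39 and 6.43 in NU7441). Tnfrsf25, the receptor of the ligand made from Tnfsf15, differed by 0.15 (SE 0.10). For Fas, Ngfr and Tnfrsf25 the groups overlapped and the adjusted p in limma lay between 0.824 and 0.840.

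The remaining 11 TRAF-binding receptors differed by at most 0.18 in size. Tnfrsf18, also known as GITR, came nearest to the unadjusted threshold, at 6.96, 7.05 and 6.93 in DMSO and 6.81, 6.83 and 6.90 in NU7441, a difference of -0.14 (SE 0.07, unadjusted p 0.0744, adjusted p 0.764 in limma). Tnfrsf1b, the second TNF receptor, was at 8.188, 8.436 and 8.297 in DMSO and 8.203, 8.214 and 8.237 in NU7441, a difference of -0.09 (SE 0.08). Cd40, a receptor of antigen-presenting cells, was at 6.26, 6.24 and 6.12 against 6.33, 6.16 and 6.21. Both overlapped between groups, as did the rest of these 11 apart from Tnfrsf18. Receptors of B and T lymphocytes, Tnfrsf13b at -0.18, Tnfrsf13c at 0.11, Tnfrsf17 at 0.02, Cd27 at 0.08, Tnfrsf4 at -0.06 and Tnfrsf8 at 0.02, had adjusted p-values in limma from 0.830, for Tnfrsf13b, up. Tnfrsf14, which binds the ligand made from Tnfsf14, differed by 0.03 (SE 0.10).

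The RANKL axis showed no difference between the groups beyond the spread. Tnfrsf11b, osteoprotegerin, was at 10.65, 9.89 and 11.18 in DMSO and 10.37, 10.38 and 11.22 in NU7441. It varied more within groups than between them, number 3 being highest in each group and DMSO 2 lowest of all, and its difference of 0.08 (SE 0.36) had a 95% interval from -0.76 to 0.92. That difference turned to -0.26 without DMSO 2 and to -0.20 without NU7441 3. DMSO 2 was also lowest for the proliferation genes and NU7441 3 highest, and their part in the spread of Tnfrsf11b was not tested. Tnfsf11, RANKL, was at 5.19, 5.38 and 5.27 in DMSO and 5.13, 5.14 and 5.29 in NU7441, a difference of -0.09 (SE 0.08). Lower quartiles of the arrays were 5.11 to 5.16, so RANKL was read close to the dim end, where a change in transcript may be understated. Tnfrsf11a, RANK, was at 5.83, 5.62 and 5.76 against 5.64, 5.62 and 5.70. The log2 ratio of Tnfsf11 to Tnfrsf11b within an array differed by -0.17, NU7441 minus DMSO, with an exact two-sided permutation p of 0.8, where 3 against 3 arrays cannot go below 0.1. Without DMSO 2 the ratio's difference was 0.22 and without NU7441 3 it was 0.06.

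**Figure D4:**
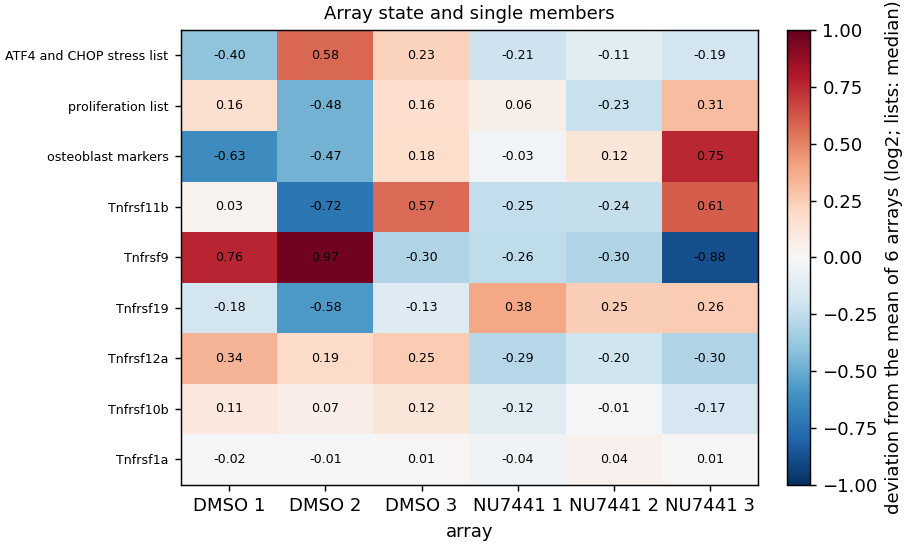
Deviation of each array from the mean of the 6 arrays (log2 units, colour and printed value) for the medians of 3 gene lists and for 6 members. Tnfrsf11b is highest in both arrays numbered 3, and Tnfrsf9 is highest in DMSO 1 and DMSO 2, the arrays with the lowest osteoblast markers.

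The other decoys were Tnfrsf22 and Tnfrsf23, which bind TRAIL without a death domain, and their relative Tnfrsf26 is grouped with them here. These 3 genes lie beside each other in the RefSeq annotation (GRCm38.p6) and are close paralogues, and cross-hybridisation between their probes was not tested. Tnfrsf22 was at 7.41, 7.53 and 7.60 in DMSO and 7.53, 7.73 and 7.69 in NU7441, a difference of 0.14 (SE 0.08). Tnfrsf23 was at 9.21, 9.28 and 8.96 against 9.10, 9.11 and 8.84, a difference of -0.13 (SE 0.11), and number 3 was lowest in each group. Tnfrsf26 differed by -0.18 (SE 0.10). In all 3 the groups overlapped, and the smallest adjusted p in limma was 0.779.

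The 13 ligands varied little. Of them 9 were lower and 4 higher with NU7441, with a median of -0.05 and differences between -0.15 and 0.13, and the groups overlapped in all. Quantile normalization and median centring each gave 10 lower and 3 higher, and leaving out DMSO 2 gave 7 and 6. Fasl, the death ligand of cytotoxic lymphocytes, had the smallest p, at 5.47, 5.53 and 5.40 in DMSO and 5.40, 5.31 and 5.22 in NU7441, a difference of -0.15 (SE 0.08, adjusted p 0.766 in limma). Tnf itself was at 6.45, 6.33 and 6.43 against 6.45, 6.58 and 6.42, and its neighbours Lta and Ltb, the lymphotoxins, differed by -0.03 (SE 0.15) and 0.13 (SE 0.13). Tnfsf10, TRAIL, was at 6.07, 6.37 and 6.37 in DMSO and 6.01, 6.33 and 6.16 in NU7441. None of these ligands differed beyond the spread between arrays. Among the costimulatory ligands Tnfsf14 differed by -0.12 (SE 0.11), Tnfsf18 by -0.09 (SE 0.22), Tnfsf15 by -0.05 (SE 0.15), Tnfsf4 by -0.03 (SE 0.11) and Tnfsf8 by 0.02 (SE 0.09). Tnfsf13b, the B cell survival factor BAFF, differed by 0.08 (SE 0.09). The value of Tnfsf18 in DMSO ran from 4.05 to 5.02, which made its interval the widest among ligands.

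Genes of the pathway beyond the members were taken as fixed lists. Of 31 receptor adaptors and proximal signalling genes 29 were measured, 18 lower and 11 higher, with a median of -0.02. Only Tank, an adaptor that binds TRAFs, had an unadjusted p under 0.05, at -0.19 (SE 0.08). That is 3.45% of the list, against 3.3% of all genes in that direction and 6.79% in either. Without NU7441 3 there was 0, and without DMSO 2 there was 1, Tnfaip3 in place of Tank. Next in order of p came the kinase adaptor subunit Tab3, at -0.11, Tnip2, which binds the ubiquitin editor A20, at -0.15, and Traf5 at -0.18. The NF-kB list had 12 of 14 genes measured, and all 12 lay lower, by a median of -0.04. Over all genes 10809 lay lower and 11371 higher. Among the 7218 genes with a mean above every array's upper quartile, which include 7 of these 12, 4462 lay lower and 2756 higher. The median of these bright genes was -0.024. Quantile normalization gave 10 lower and 2 higher, and leaving out DMSO 2 gave 8 lower and 4 higher. In it 2 lay lower with an unadjusted p under 0.05 (16.7%, against 3.3% of all genes in that direction). They were Nfkbiz, a nuclear protein of the IkB family, at -0.28 (SE 0.11), and Bcl3, of the same family, at -0.19 (SE 0.07). Without DMSO 2, and likewise without NU7441 3, there was 0. Nfkbib, at -0.15, and Nfkbia, at -0.07, both cytoplasmic inhibitors, followed.

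Of 30 genes that TNF induces in mesenchymal cells 29 were measured, with a median of -0.10, 21 lower and 8 higher. Without DMSO 2 the median was -0.04, with 16 lower and 13 higher. At an unadjusted p under 0.05 there were 5 lower and 2 higher, 24.1% against 6.79% of all genes. Without DMSO 2 there were 3 lower and 3 higher at that threshold, and without NU7441 3 there were 3 lower and 2 higher. The genes at that threshold thus lay in opposite directions. The chemokine Ccl5 was at 7.75, 8.0 and 7.55 in DMSO and 8.20, 8.60 and 8.57 in NU7441, a difference of 0.69 (SE 0.15). The chemokine Ccl2 was at 9.49, 9.83 and 9.25 in DMSO and 8.94, 9.03 and 8.91 in NU7441, a difference of -0.56 (SE 0.14). Nos2, the inducible nitric oxide synthase, differed by -0.34 (SE 0.08) and Csf3, a granulocyte growth factor, by 0.31 (SE 0.10). The adjusted p in limma was 0.606 for Ccl5, 0.643 for Ccl2 and Nos2 and 0.698 for Csf3. With the block, trend and robust prior limma called Ccl2 (adjusted p = 0.0434), 1 of 29 genes or 3.45%, against 0.451% of all genes. In that fit Ccl5, in the other direction, had an adjusted p of 0.0520. The call of Ccl2 with single pairs left out is not reported here.

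Of 18 genes of death execution 15 were measured, 8 lower and 7 higher, with a median of -0.02. At an unadjusted p under 0.05 there were 4, all lower (26.7%, against 3.3% of all genes in that direction and 6.79% in either). Bak1, which opens the outer mitochondrial membrane, was at 10.13, 10.18 and 10.24 in DMSO and 9.98, 9.97 and 9.88 in NU7441, a difference of -0.24 (SE 0.07). Mcl1, which restrains Bak1, differed by -0.23 (SE 0.07), cytochrome c (Cycs) by -0.19 (SE 0.06) and Mlkl, the effector of necroptosis, by -0.18 (SE 0.07). The groups did not overlap in these 4, all lower with NU7441, and overlapped in the other 11. Of all genes 6.64% were apart in that direction and 12.8% in either. Of the 15 genes 12 had a mean above every array's upper quartile. Among all 7218 genes as bright, the groups were apart with NU7441 lower in 814 and higher in 305. At an unadjusted p under 0.05 in limma 315 of these bright genes were lower and 99 higher. Casp9 at 0.12, Bcl2 at 0.07 and Xiap at 0.06 were among the 7 that lay higher. For Bak1, Mcl1, Cycs and Mlkl the adjusted p in limma was between 0.697 and 0.717. The 7 relatives of the superfamily under other symbols, Ltbr, Eda, Edar, Eda2r, Cd40lg, Cd70 and Relt, had 0 at an unadjusted p under 0.05 in limma, the smallest being 0.123 for Eda2r at -0.13 (SE 0.08). In each of these lists 0 genes had an adjusted p under 0.05 by limma without pairs.

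**Figure D5:**
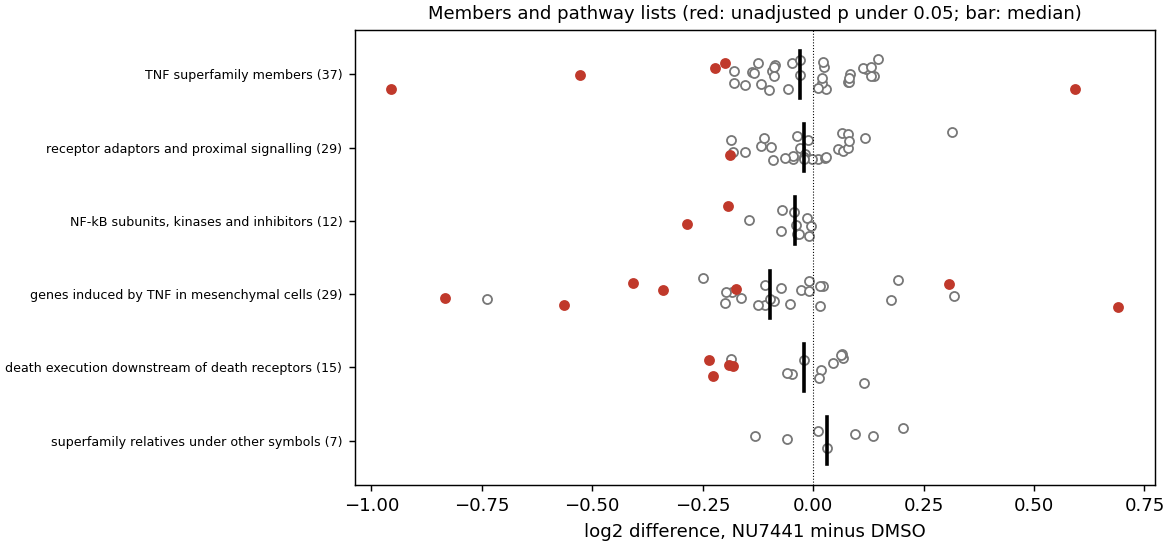
Log2 difference, NU7441 minus DMSO (x axis), of each measured gene in the superfamily and 5 related lists, with the number measured in brackets, the median as a bar and genes at an unadjusted p under 0.05 in red. The medians lie between -0.10 and 0.03, while single genes such as Tnfrsf9, Ptgs2 and Ccl5 lie far from them.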

How the data were processed

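For each of 41345 probe sets the deposited table gives a log2 value on 6 Affymetrix arrays. The log2 scale was inferred from the range of the values. How the authors corrected, summarised and normalized the arrays is not given in the sources used here. The array brand is per the labels' protocols. The platform annotation gave 1 gene symbol for 23521 probe sets, several for 1814 and none here for 16010. A gene with several single-symbol probe sets was represented by its brightest on average. This gave 22180 genes, with no filter on level, and 0 columns of other samples were present.

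Groups were compared in limma 3.58.1 (R 4.3.3) with treatment as the single term and two-sided moderated tests. The p-values were adjusted by Benjamini-Hochberg over the 22180 genes and called under 0.05. The code was tested on simulated data. Values are NU7441 minus DMSO with the moderated SE. The members, lists, tests and alternatives were chosen with earlier results of these data known. All members were named. Values in every array were given for members at an unadjusted p under 0.05, for the member next to that threshold and for preset single members, and from each list up to 4 genes by smallest p were named.

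Same-numbered arrays deviated together from their group means over genes, with correlations from 0.149 to 0.339 for the same number and from -0.246 to 0.094 for different numbers. The fit reported used no pairs. Every same-number correlation exceeded 0.1, so the numbers were treated as pairs in the alternatives with a replicate block. This rests on the data and on no label. The replicate block, an intensity trend with a robust prior, both together, quantile normalization, median centring, array weights, averaging each gene's probe sets, removal of dim genes and leaving out each array were alternatives, and leaving out each pair was added after the data were examined. Promoters are from RefSeq (GRCm38.p6), matched by Entrez number. Python 3.11.15 and matplotlib 3.10.9 drew the figures.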

Additional observations from a re-analysis of the deposited data

How the results depend on the processing

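Limma gave 0 genes an adjusted p under 0.05 under all alternatives except the replicate block with intensity trend and robust prior. That fit called 100 genes, and 44, 155 and 55 without pair 1, 2 and 3, and of the members 3, and 0, 3 and 2 without these pairs. The count of genes at an unadjusted p under 0.05, 1506 in the fit reported, was 2483 in that fit, 933 in the brighter 50 percent of genes, 1174 to 1746 with 1 array left out and 1734 to 2578 with 1 pair left out. For the members, 5 in the fit reported, it was 3 to 4 with 1 array left out and 4 to 8 with 1 pair left out. The members' median of -0.03 was -0.065 with quantile normalization, 0.012 in the brighter 50 percent of genes, -0.069 to -0.019 with 1 array left out and -0.048 to 0.0032 with 1 pair left out. The difference in the ratio of Tnfsf11 to Tnfrsf11b ran from -0.48 to 0.22 with 1 array left out, and filters on dim genes gave no value for it. The replicate block by itself left it at -0.17 and changed no adjusted call.

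Of 333 values of 19 named members under the alternatives, 313 kept their direction and side of the threshold, 8 passed it, all under the block with trend and robust prior with or without 1 pair, and 12 changed sign. Cd40 was -0.0099 with quantile normalization, -0.022 to 0.061 with 1 array left out and -0.0033 to 0.077 with 1 pair left out. Tnfrsf1a was -0.0093 with median centring, -0.0058 to 0.034 with 1 array left out and -0.0068 to 0.028 with 1 pair left out. Tnfrsf11b was -0.12 with array weights, -0.26 to 0.39 with 1 array left out and -0.12 to 0.26 with 1 pair left out. Tnf was -0.0091 to 0.13 with 1 pair left out. The cause was not tested. Signal over background, which limits the dim members, was not analysed here.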
